A study of Mus musculus with 5 samples.

Results

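Netrins and netrin receptors comprise the secreted netrins Ntn1, Ntn3, Ntn4 and Ntn5, the UNC5 family receptors Unc5a, Unc5b, Unc5c and Unc5d, and the related receptors Dcc and Neo1. These 10 genes were chosen by name, out of 22911 genes with a RefSeq symbol and a probe on the array, after the difference of Ntn5 between the groups had been seen. They carried 17 probes. Values came from whole colon of wild-type C57BL/B6 mice, hybridised to single-colour Agilent mouse arrays with 1 mouse per array. The Control group held 2 untreated mice. In the NT-3N 3 hr group, 3 mice were injected intravenously with NT-3N, a modified human IL-11 that acts as an IL-11 receptor agonist, and the colon was taken 3 hr later. Injected mice were 8 weeks old, and the sources used here give no age for the Control mice. The labels give the Control mice no vehicle injection, so effects of being injected and of NT-3N cannot be told apart. The labels and the methods also give the amount injected in different units of mass, so no dose is stated here.

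Netrins are secreted proteins related to laminins that guide growing axons and migrating cells. DCC mediates attraction towards netrin-1, and UNC5 receptors turn the response into repulsion. DCC and UNC5 receptors are also known as dependence receptors, which can trigger cell death when no netrin is bound, and in the gut netrin-1 and these receptors have been studied in epithelial survival and colorectal cancer. Neogenin, the product of Neo1, resembles DCC and also binds repulsive guidance molecules. Netrin-4 is related to laminin beta chains and is found in basement membranes, whereas netrin-5 is the least studied of the secreted netrins.

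Ntn5 was the gene on which the comparison was chosen, so the sequence before its start is shown here as the identity of the locus. It is the 250 bases before the annotated start of Ntn5 in RefSeq, at chr7:45683772-45684021 on the plus strand of GRCm38.p6, written from 5′ to 3′ in lower case.
Ntn5 promoter: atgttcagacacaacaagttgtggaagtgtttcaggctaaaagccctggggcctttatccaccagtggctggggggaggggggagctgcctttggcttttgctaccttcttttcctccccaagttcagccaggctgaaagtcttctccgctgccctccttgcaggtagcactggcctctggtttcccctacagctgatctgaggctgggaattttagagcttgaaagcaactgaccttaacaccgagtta
The RefSeq table held promoter windows of 300 bases, from 250 before to 50 after the start, for 7 of the 10 genes. The STAT-type motif TTCNNNGAA, which reads the same on both strands, was in 0 of these 7 windows, compared with 8.3% of 32851 windows of all genes. GC content was 55.3% in the Ntn5 window and between 68.3% and 82.7% in the windows of Ntn3, Ntn4, Unc5a, Unc5b, Unc5c and Neo1. A search for these letters in these windows says nothing about binding elsewhere.

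All values below are log2 processed signals after quantile normalization, and all differences are NT-3N 3 hr minus Control on that log2 scale, with the standard error of the limma fit. Between 70.6% and 73.1% of probes per array were well above background, a flag that the scanner software gives to spots brighter than their background. Arrays correlated at 0.980 to 0.992 across features, and the median difference over all 32917 features tested was -0.019. Markers of epithelium, smooth muscle, endothelium, fibroblasts, enteric neurons and enteric glia were well above background on all 5 arrays. Of the 17 probes of netrins and their receptors, 11 were well above background on all 5 arrays, 3 on some arrays and 3 on none. Each of the 10 genes had at least 1 probe that could be compared, and the brightest of these represents the gene.

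Ntn5 was higher in the colon of mice given NT-3N, and was the netrin with the largest difference of the 10 genes. On probe A_55_P2481482, the brighter of its pair of probes, the Control arrays read 6.51 and 6.52 and the NT-3N arrays read 7.70, 7.72 and 7.92. All 3 NT-3N arrays lay above both Control arrays, with a gap of 1.17 between the groups. The mean was 6.52 ± 0.011 (SD, n = 2) in the Control group and 7.78 ± 0.12 (SD, n = 3) in the NT-3N group, a difference of 1.27 ± 0.14 (SE), or 2.41-fold. Before normalization, the processed signals were 84.8 and 94.0 on the Control arrays and 183.0, 242.5 and 253.4 on the NT-3N arrays. These values selected the gene, so they are a description and no test of them is given.

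The other probe of Ntn5, A_52_P588771, was annotated to a different RefSeq transcript of the gene and was well above background on all 5 arrays. Without probe sequences, which transcripts either probe detects could not be checked. It read 4.09 and 4.35 on the Control arrays and 4.61, 4.97 and 4.60 on the NT-3N arrays. The groups again did not overlap, but they were only 0.25 apart. The difference was 0.50 ± 0.27 (SE), or 1.42-fold, which is 0.76 less than on the brighter probe. Its processed signals were 16.7 and 20.9 on the Control arrays and 22.6, 34.2 and 24.6 on the NT-3N arrays, and the lowest normalized log2 signal flagged as well above background was 3.33 to 3.70, depending on the array. Both probes were therefore higher with NT-3N, by amounts that differed between them. With the background corrected by normexp on the median spot signal in place of the processed signal, the differences were 0.87 on the brighter probe and 0.13 on the other.

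**Figure D1:**
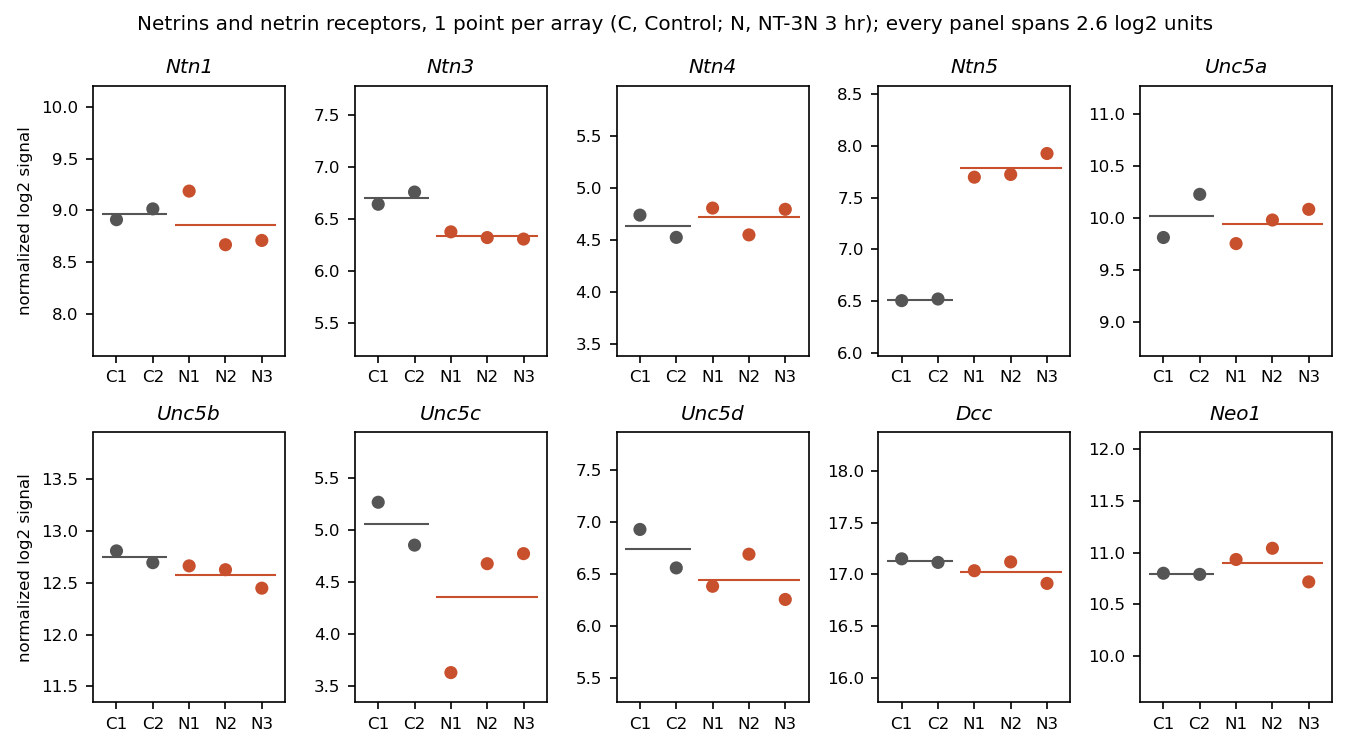
Normalized log2 signal of the brightest usable probe of each gene on each array (C, Control; N, NT-3N 3 hr), with horizontal lines at group means; every panel spans the same number of log2 units. Ntn5 reads 6.51 and 6.52 on the Control arrays and 7.70 to 7.92 on the NT-3N arrays, whereas the points of 6 of the other genes overlap between groups.

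Of the other netrins, none was higher with NT-3N on every array. Ntn1, the canonical netrin of axon guidance, read 8.91 and 9.02 on the Control arrays and 9.19, 8.67 and 8.71 on the NT-3N arrays. NT-3N replicate 1 lay above both Control arrays and the others lay below them, giving a difference of -0.11 ± 0.18 (SE). Ntn3, a netrin known from sensory and motor neurons, read 6.64 and 6.76 on the Control arrays and 6.37, 6.32 and 6.31 on the NT-3N arrays. All 3 NT-3N arrays were lower on this probe, with a gap of 0.27 and a difference of -0.37 ± 0.15 (SE). A further Ntn3 probe, not well above background on NT-3N replicate 1, read 4.08 and 3.65 against 3.48, 3.79 and 3.98, and its groups overlapped, with a difference of -0.11 ± 0.34 (SE). The probes of Ntn3 thus disagreed on whether the groups were apart. Ntn4 read 4.74 and 4.52 on the Control arrays and 4.80, 4.55 and 4.79 on the NT-3N arrays, a difference of 0.085 ± 0.24 (SE) with overlapping groups.

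Of the 6 receptors, 5 had negative differences, from -0.70 for Unc5c to -0.081 for Unc5a, and Neo1 had a positive one. Unc5b, an UNC5 receptor well known from endothelial cells, read 12.81 and 12.69 on the Control arrays and 12.66, 12.63 and 12.45 on the NT-3N arrays. The NT-3N arrays were all lower, by a gap of only 0.031, and the difference was -0.17 ± 0.097 (SE). A further Unc5b probe read 10.95 and 10.98 against 10.87, 10.89 and 10.77, again with all NT-3N arrays lower, and differed by -0.12 ± 0.088 (SE). Both Unc5b probes therefore pointed the same way. Beside this, 7 of 8 endothelial markers had positive differences, and the sum of their unlogged normalized signals was 3408 to 3760 on the Control arrays and 3651 to 4268 on the NT-3N arrays. Whether the number of endothelial cells bears on Unc5b was not tested. In bulk tissue, fewer cells of a type and less RNA per cell cannot be told apart.

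Unc5c, a receptor of axon repulsion, read 5.27 and 4.85 on the Control arrays and 3.63, 4.68 and 4.77 on the NT-3N arrays. NT-3N replicate 1, on which the probe was not well above background, was by far the lowest, and the difference of -0.70 ± 0.41 (SE) became -0.34 without it. A further Unc5c probe was not well above background on any array. Unc5a read 9.81 and 10.23 against 9.75, 9.98 and 10.08, and Control replicate 1 and NT-3N replicate 1 were the low arrays of their groups. Its difference was -0.081 ± 0.16 (SE), and it was -0.29 if Control replicate 1 was dropped and 0.13 if Control replicate 2 was dropped, so a single array set its sign. Unc5d read 6.93 and 6.56 against 6.38, 6.69 and 6.26, with overlapping groups and a difference of -0.30 ± 0.20 (SE).

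Dcc, the receptor named for its deletion in colorectal carcinoma, gave readings that depended on the probe. Probe A_55_P1961761 read 17.15 and 17.12 on the Control arrays and 17.04, 17.12 and 16.91 on the NT-3N arrays, with processed signals of 124072 to 152008. The groups overlapped, and the difference was -0.11 ± 0.076 (SE). Of the 3 further Dcc probes, A_52_P405708 and A_55_P2021744 were not well above background on any array. Probe A_55_P2736904 was well above background on 4 arrays, and read 3.92 and 4.81 on the Control arrays and 3.92, 4.05 and 4.67 on the NT-3N arrays. Since a bright reading came from 1 of 4 probes, the level of Dcc transcripts in colon could not be taken from that probe alone. Neo1 read 10.80 and 10.79 on the Control arrays and 10.93, 11.04 and 10.72 on the NT-3N arrays. NT-3N replicate 3 lay below both Control arrays and the others lay above them, and the difference was 0.10 ± 0.12 (SE).

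Counted over the 10 genes, 3 differences were positive and 7 were negative. The median was -0.11, beside -0.019 over all features. Leaving aside Ntn5, the 9 differences lay between -0.70 and 0.10, and 4 of them were smaller than their own standard error. The groups did not overlap for 1 gene that was higher with NT-3N, Ntn5, and for 3 that were lower, Ntn3, Unc5b and Unc5c. Among all features, 13.5% did not overlap with NT-3N higher and 14.8% with NT-3N lower. Because the genes were picked with this contrast in view, nothing is read from these counts.

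**Figure D2:**
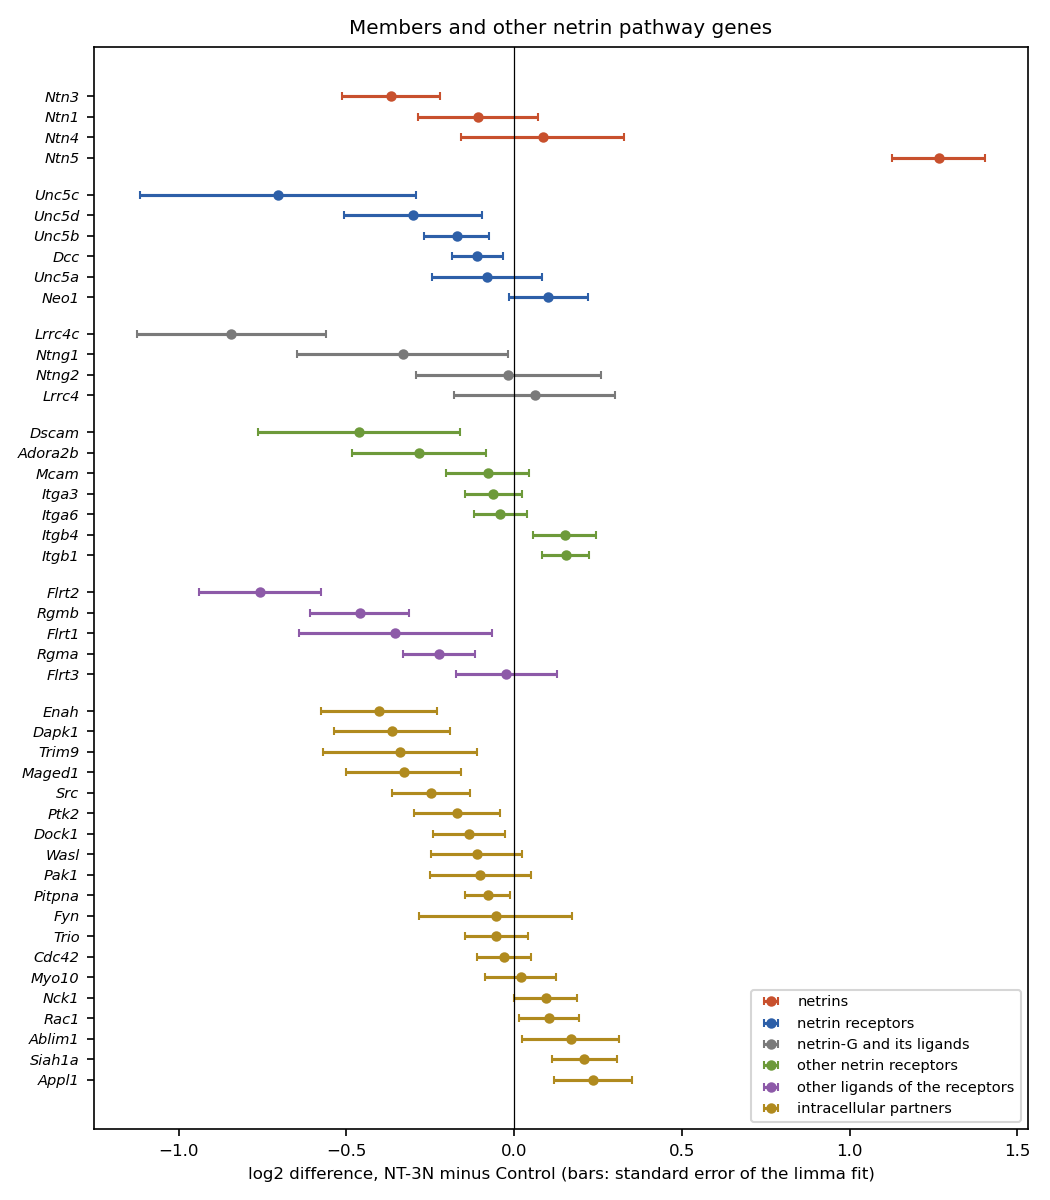
Log2 difference (NT-3N 3 hr minus Control) of the 10 netrin and netrin receptor genes and of 35 other genes of the pathway, with bars for the standard error of the limma fit and colours for the group of genes. Ntn5 stands at 1.27, whereas the other netrins and receptors lie between -0.70 and 0.10 and the other pathway genes between -0.84 and 0.23.

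A further 40 genes of the netrin pathway were listed, and 35 of them had a probe that could be tested. Dscaml1, Draxin, Hjv, Cbln4 and Trim67 were not well above background on any array. None of the 35 passed the adjusted threshold in limma, in either direction, and the lowest adjusted p was 0.27. Of all features, 0.125% passed it with NT-3N higher and 0.0182% with NT-3N lower. At an unadjusted p under 0.05, 0 were higher and 3 were lower, which compares with 4.95% and 4.67% of all features. Of the 35 differences, 9 were positive and 26 were negative, with a median of -0.079, and 17654 of all 32917 features had negative differences. The groups did not overlap for 3 of the 35 genes with NT-3N higher and 9 with NT-3N lower, beside 13.5% and 14.8% of all features.

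The other ligands of netrin receptors, which include the FLRT proteins and the repulsive guidance molecules, had negative differences for all 5 tested genes of 8 listed, with a median of -0.35. Flrt2, an adhesion protein that binds UNC5 receptors, read 7.09 and 7.36 on the Control arrays and 6.34, 6.37 and 6.69 on the NT-3N arrays. All NT-3N arrays were lower, and the difference was -0.76 ± 0.18 (SE), with a limma p of 0.0052 and an adjusted p of 0.27. A further Flrt2 probe read 6.16 and 6.46 against 5.17, 5.10 and 5.39, a difference of -1.09. With groups that did not overlap, leaving out 1 array left little room for a change of sign. Dropping the intensity trend or using robust eBayes left the difference as it was, so the alternatives are not independent checks of the sign. The difference of Flrt2 was negative in the fit and in all 16 alternatives, from -0.93 to -0.50, with adjusted p between 0.14 and 1.

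Rgmb, a repulsive guidance molecule and ligand of neogenin, read 8.10 and 8.31 on the Control arrays and 7.91, 7.73 and 7.60 on the NT-3N arrays. The groups did not overlap, and the difference was -0.46 ± 0.15 (SE), with a limma p of 0.019 and an adjusted p of 0.42, which ran from 0.17 to 1 over the alternatives. A further Rgmb probe differed by -0.12 and its groups overlapped. Rgma, another ligand of neogenin, read 10.88 and 10.84 against 10.50, 10.64 and 10.76, with all NT-3N arrays lower. Flrt1 and Flrt3 had overlapping groups, with differences of -0.35 ± 0.29 (SE) and -0.023 ± 0.15 (SE).

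The netrin-G group comprises membrane-anchored netrin relatives, which bind neither DCC nor UNC5 receptors, and their own ligands. All 4 of its genes were tested. Lrrc4c, the ligand of netrin-G1, read 5.62 and 6.09 on the Control arrays and 4.66, 5.05 and 5.33 on the NT-3N arrays. Its probe was dim, with processed signals of 46.2 and 69.9 on the Control arrays and 23.3, 36.3 and 41.2 on the NT-3N arrays. The NT-3N arrays were all lower, with a difference of -0.84 ± 0.28 (SE), a limma p of 0.023 and an adjusted p of 0.43, which ran from 0.24 to 1 over the alternatives. Ntng1, Ntng2 and Lrrc4 had overlapping groups.

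Other proteins reported to bind netrins include DSCAM, MCAM, the adenosine A2B receptor and laminin-binding integrins. Of 8 such genes, 7 were tested and 0 passed either threshold. The integrin subunits Itga3 and Itga6 differed by -0.062 ± 0.085 (SE) and -0.041 ± 0.080 (SE). Their partners Itgb1 and Itgb4 differed by 0.15 ± 0.070 (SE) and 0.15 ± 0.093 (SE). Dscam differed by -0.46 ± 0.30 (SE), Adora2b by -0.28 ± 0.20 (SE) and Mcam by -0.079 ± 0.12 (SE).

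Of 20 intracellular partners of the receptors, such as kinases, GTPases and regulators of actin, 19 were tested, with 6 positive and 13 negative differences and 0 past either threshold. Enah, an actin regulator of the Ena/VASP family, had the lowest p of them. It read 9.69 and 9.63 on the Control arrays and 8.94, 9.34 and 9.48 on the NT-3N arrays. The difference was -0.40 ± 0.17 (SE), with a limma p of 0.055 and an adjusted p of 0.53, which ran from 0.32 to 1 over the alternatives, and a further Enah probe, with overlapping groups, differed by -0.23. Dapk1, a death-associated kinase known to act downstream of UNC5 receptors, differed by -0.36 ± 0.17 (SE). The GTPases Rac1 and Cdc42 differed by 0.10 ± 0.089 (SE) and -0.031 ± 0.080 (SE).

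Markers of the cell types of the colon wall were measured on the same arrays. All 8 smooth muscle markers had negative differences, with a median of -0.33, and for 7 the groups did not overlap, beside 14.8% of all features that did not overlap with NT-3N lower. The sum of their normalized signals was 452303 to 467075 on the Control arrays and 331061 to 422707 on the NT-3N arrays. All 8 enteric neuron markers also had negative differences, with a median of -0.14, and sums of 37598 to 39303 and 31807 to 36663. For these, unlike smooth muscle, the groups did not overlap for only 1 of 8, beside the same 14.8% of all features. None of the smooth muscle and enteric neuron markers passed the adjusted threshold. Fibroblast markers had 5 positive and 3 negative differences, with sums of 66013 to 72587 and 60521 to 90468, and epithelial markers had 2 positive and 6 negative differences, with sums of 930227 to 935068 and 844381 to 975817.

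Of 6 enteric glia markers, Gfap was higher with NT-3N, by 1.84 ± 0.13 (SE), with a limma adjusted p of 0.012, and the sums were 1360 to 1419 and 1548 to 1800. The Control arrays themselves differed in markers of B cells, with sums of 1138 to 4653 against 4382 to 5182 with NT-3N, and of fat, with sums of 3267 to 16844 against 2386 to 11536. The part of these markers in the values of netrins, receptors and ligands was not tested.

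**Figure D3:**
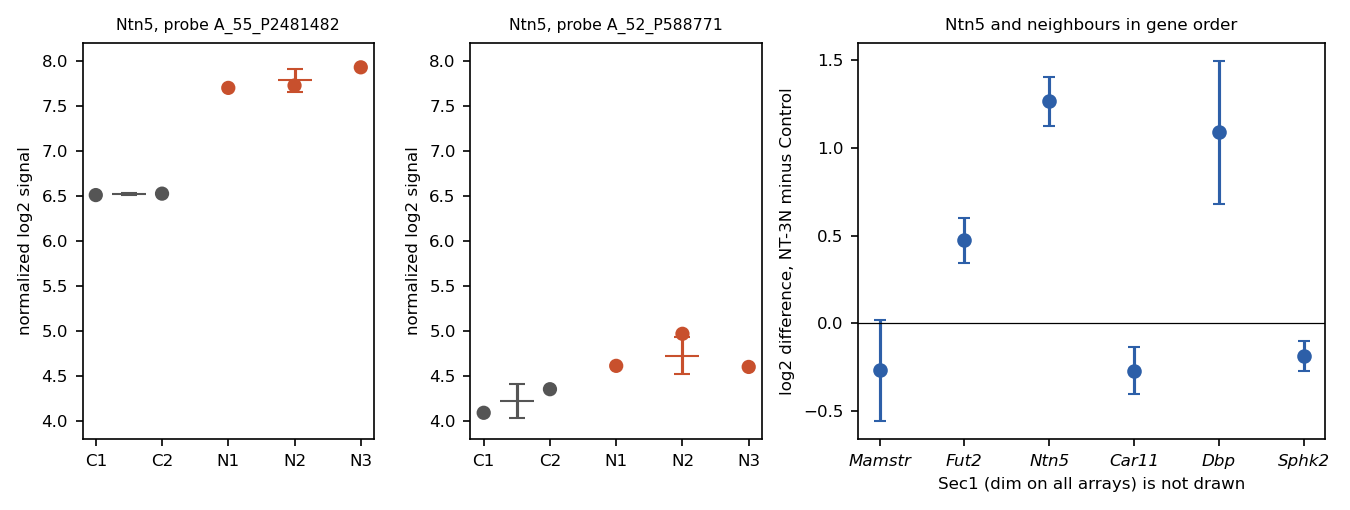
Left and middle, normalized log2 signal of both Ntn5 probes on each array (C, Control; N, NT-3N 3 hr), with group means and SD; right, log2 difference of Ntn5 and its neighbours in gene order, with bars for the standard error. The groups are 1.17 apart on one Ntn5 probe and 0.25 apart on the other, and Fut2 and Dbp also have positive differences.

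The 3 nearest genes with a probe on each side of Ntn5 were Mamstr, Fut2 and Sec1 before it and Car11, Dbp and Sphk2 after it. In the RefSeq table the gene Sec1 overlaps Ntn5 on the opposite strand. Its probe was not well above background on any array. Fut2, a fucosyltransferase of the gut epithelium, read 8.61 and 8.32 on the Control arrays and 8.92, 8.99 and 8.90 on the NT-3N arrays. All NT-3N arrays were higher, with a difference of 0.47 ± 0.13 (SE), a limma p of 0.0089 and an adjusted p of 0.34.

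Dbp, a transcription factor driven by the circadian clock, read 14.04 and 12.50 on the Control arrays and 14.50, 14.19 and 14.38 on the NT-3N arrays. The Control arrays lay further from each other than Control replicate 1 lay from any NT-3N array. The difference was 1.09 ± 0.41 (SE), with a limma p of 0.035 and an adjusted p of 0.48, and a further Dbp probe differed by 0.95. The other neighbours had negative differences, with -0.27 ± 0.29 (SE) for Mamstr, -0.27 ± 0.14 (SE) for Car11 and -0.19 ± 0.085 (SE) for Sphk2. None of the 5 tested neighbours passed the adjusted threshold, and Car11, which follows Ntn5 directly, differed in the opposite direction to it.

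Genes whose pattern over the 5 arrays was nearest to that of Ntn5 were found by the root mean square distance between centred log2 values, among 16738 genes well above background on all arrays. The nearest was Gfpt2, an enzyme of hexosamine synthesis, at a distance of 0.057. It read 6.24 and 6.15 on the Control arrays and 7.37, 7.37 and 7.71 on the NT-3N arrays. The next were Cdr2l at 0.083, the atypical chemokine receptor Ackr2 at 0.098, the RNA-binding protein Arid5a at 0.11 and the RNA-binding protein Bicc1 at 0.12. Their differences were 1.12 for Cdr2l, 1.09 for Ackr2, 1.16 for Arid5a and 1.11 for Bicc1, beside 1.29 for Gfpt2. Since all were picked for likeness to Ntn5 on the same 5 arrays, these values are a description.

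**Figure D4:**
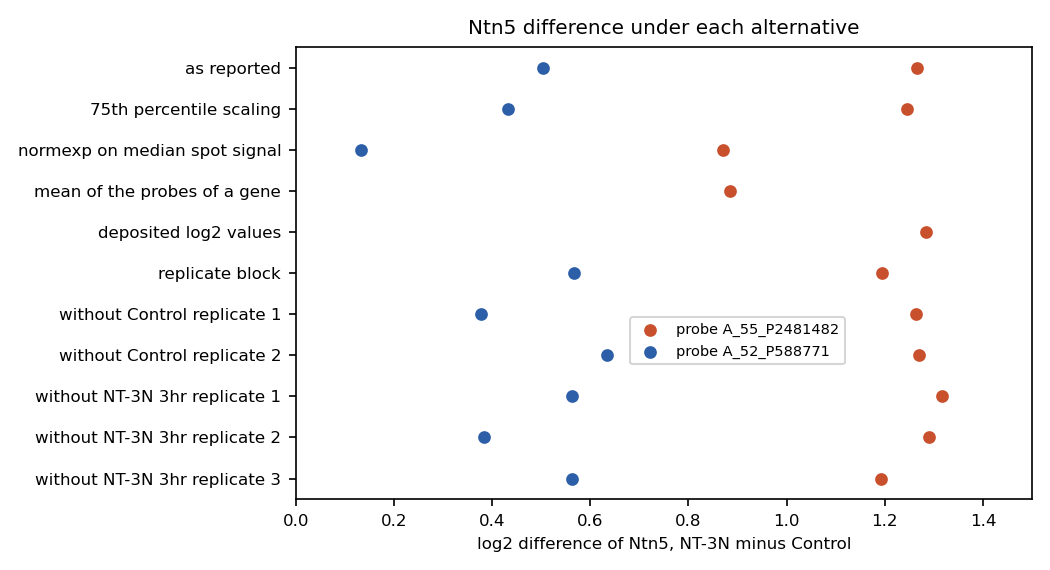
Log2 difference of Ntn5 (NT-3N 3 hr minus Control) as reported and under alternatives in processing or in the arrays used, by probe. For the mean of the probes of a gene the single value is drawn in the colour of A_55_P2481482. All values are positive, from 0.87 to 1.32 on A_55_P2481482 and from 0.13 to 0.63 on A_52_P588771. The groups did not overlap on either probe, so leaving out 1 array is no test of the sign.

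Across processing alternatives and left-out arrays, both Ntn5 probes kept a positive difference, from 0.87 to 1.32 on the brighter probe and from 0.13 to 0.63 on the other. Where the groups did not overlap, as on both Ntn5 probes, leaving out 1 array left little room for a change of sign. The kept sign is therefore no test of Ntn5. The Unc5b probes ran from -0.23 to -0.11 and from -0.14 to -0.084. The brighter Ntn3 probe ran from -0.42 to -0.26, and the mean of the Ntn3 probes differed by -0.24. Unc5c ran from -0.91 to -0.21, Unc5d from -0.49 to -0.11 and Neo1 from 0.029 to 0.19. The bright Dcc probe ran from -0.16 to -0.054. Ntn1, Ntn4 and Unc5a each changed sign under at least 1 setting, as did the further Ntn3 probe, from -0.33 to 0.10, and the Dcc probe A_55_P2736904, from -0.60 to 0.29.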

How the data were processed

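The authors extracted 5 arrays with Feature Extraction 11.0.1.1, and the deposited scanner files hold background-subtracted spot intensity, with no scaling across arrays, and flags. The deposited table of log2 values correlated with the quantile-normalized intensity at 1.00 on every array and was used as an alternative. From the scanner files, outlier spots (69 to 184 per array) were dropped, log2 intensities of spots of 1 probe were averaged and arrays were quantile normalized. Probes well above background on at least 2 arrays were kept. Accessions were named through RefSeq (GRCm38.p6), which gave 32994 of 56605 probes a symbol; the array design refers to another build. The brightest probe represented a gene. The comparison used lmFit and eBayes of limma 3.58.1 (R 4.3.3) with the trend option and two-sided p-values, adjusted by the Benjamini-Hochberg method over 32917 features. The study's methods name a local-pooled-error test, which was run as an alternative on differences of group medians. With array weights, the differences were of weighted means. The number of arrays limits the precision, and all 5 were on 1 slide with 1 scan time.

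The genes and lists were chosen with earlier results of these data known. Genes named in the text were all netrins and receptors with every probe, pathway genes past the adjusted threshold or otherwise the 4 with the lowest p, 3 neighbours of Ntn5 on each side and 5 genes with the nearest pattern. Others (Rgma, Flrt1, Flrt3, the integrins, Dscam, Adora2b, Mcam, Dapk1, Rac1, Cdc42 and Gfap) were chosen after their values were seen. The scripts were tested on simulated data.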

Additional observations from a re-analysis of the deposited data

How the results depend on the processing

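Of 132 values of the netrin and receptor probes under the alternatives, 125 moved by less than 1 SD between replicates and 7 moved further. The brighter Ntn5 probe went from 1.27 to 0.87 with normexp, and from 1.19 to 1.32 when 1 array was left out. The mean of both Ntn5 probes, counted here in place of the brighter one, differed by 0.89. That move comes from averaging in the other probe. The other Ntn5 probe went from 0.50 to 0.13 with normexp and from 0.38 to 0.63 when 1 array was left out. The remaining 4 moves were of Ntn3, from -0.37 to -0.26 with normexp, -0.24 with the mean of the probes, -0.42 without Control replicate 1 and -0.31 without Control replicate 2.

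The number of features called by limma, 41 higher and 6 lower, depended on the setting. It was 13 lower with probes well above background on all arrays, 2 higher and 0 lower with no filter, 2 and 0 with no intensity trend, 15 lower with robust eBayes, 128 and 48 with array weights, 192 and 156 with the local-pooled-error test and 11 lower with the deposited log2 values. Leaving out 1 array gave 0 to 112 higher and 0 to 16 lower. With a replicate block, 0 higher and 0 lower passed the adjusted limma threshold, with 2487 features at an unadjusted p under 0.05, and the Ntn5 probes differed by 1.19 and 0.57. The labels do not say whether the replicate numbers pair mice. Deviations of same-numbered arrays from their group means correlated at 0.13 and 0.036. These values cannot decide it, since the deviations of the Control arrays mirror each other. The replicate block fit held 4 arrays and left 1 residual degree of freedom.

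Of the other pathway genes, 0 higher and 3 lower had an unadjusted p under 0.05. The count of higher genes was 1 with 75th percentile scaling, 2 with no filter, 1 with array weights and 0 to 1 with 1 array left out. The count of lower genes was 5 with array weights, 0 with the local-pooled-error test, 5 with the replicate block and 1 to 5 with 1 array left out. None passed the adjusted threshold under any alternative run. The causes were not tested.

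Normexp was run on the median spot signal, since no mean signal was used here. With 1 Control array left out, the spread of the lone Control array was taken to equal that of the NT-3N group. A slide or scan block was not run, with 1 slide and 1 scan time. Control arrays numbered 2, so their SD is imprecise, and p-values cover the spread between these mice only. Dim probes (the second probes of Ntn5, Ntn3 and Dcc, and Unc5c and Ntn4) were read near background, where small differences cannot be resolved. Some pathway genes, such as Lrrc4c, were also dim.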
